A study of Mus musculus with 2 samples.

Results

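The 8 myosin heavy chain genes Myh3, Myh6, Myh7, Myh7b, Myh8, Myh9, Myh10 and Myh11 were followed in RNA sequencing libraries of the embryonic mouse heart. They were picked by gene symbol, with earlier results of these data known, and all 8 of 8 were found among 29383 genes in the read table, each as 1 gene model. The tissue was the apex of hearts at E12.5 (embryonic day), and 8 hearts were combined for each genotype. The control (heterozygote) had 1 floxed copy of Ezh2 beside the Nkx2-5cre driver (Nkx2-5cre, Ezh2f/+), and the mutant carried the same driver and 2 floxed copies (Nkx2-5cre, Ezh2f/f). Both groups therefore share the Cre driver, which acts in the lineage marked by Nkx2-5, and the control itself carries 1 copy of Ezh2 that the Cre can delete. Ezh2 is the histone methyltransferase of PRC2, a Polycomb complex. With 1 library per genotype the spread between animals was not measured, no test of a genotype effect was possible, and every interval given is a 95% interval of counting error only.

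Myosin heavy chains are the motor proteins of muscle and of the contractile cytoskeleton: a head domain binds actin and hydrolyses ATP, and a long coiled tail assembles into filaments. In the rodent heart Myh7 encodes the slow beta isoform that predominates in the ventricle before birth, and Myh6 encodes the fast alpha isoform, which is prominent in the atria and takes over the ventricle after birth. The remaining genes encode a slow-type muscle isoform (Myh7b), the embryonic and perinatal isoforms of skeletal muscle (Myh3 and Myh8), the smooth muscle isoform (Myh11) and the non-muscle isoforms IIA and IIB (Myh9 and Myh10).

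Each of the 3 cardiac-type genes holds a microRNA in an intron, so the host transcripts described here are also the precursors of those small RNAs. The mature sequences, from RefSeq on GRCm38.p6, are shown because they form a family that parallels the hosts. Capitals mark the seed, bases 2 to 8.
mmu-miR-208a-3p (intron 29 of Myh6): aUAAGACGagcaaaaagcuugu
mmu-miR-208b-3p (intron 31 of Myh7): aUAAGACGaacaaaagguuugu
mmu-miR-499-5p (intron 19 of Myh7b): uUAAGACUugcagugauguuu
They lie on GRCm38.p6 at chr14:54949072-54949093 on the minus strand, chr14:54975710-54975731 on the minus strand and chr2:155622893-155622913 on the plus strand, with intron numbers counted from the start of the longest coding transcript in GENCODE M21. The seed UAAGACG is shared by miR-208a-3p and miR-208b-3p, while that of miR-499-5p is UAAGACU. The small RNAs themselves were not measured here.

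The upstream sequence of the neighbouring pair Myh6 and Myh7 is shown because both genes had more CPM in the mutant. Each line gives the 250 bases before the annotated start, from RefSeq on GRCm38.p6. For Myh7 this is the upstream one of its 2 annotated starts. Capitals mark every match, on either strand, to GATA (the core bound by GATA factors) or CATTCC (the M-CAT element bound by TEAD factors), and these motifs did not overlap.
Myh6, chr14:54966608-54966857, minus strand: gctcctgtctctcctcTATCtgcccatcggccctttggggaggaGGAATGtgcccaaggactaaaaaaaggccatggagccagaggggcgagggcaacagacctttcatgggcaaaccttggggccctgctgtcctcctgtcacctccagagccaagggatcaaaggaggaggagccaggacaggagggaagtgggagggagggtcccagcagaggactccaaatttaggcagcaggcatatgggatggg
Myh7, chr14:54994627-54994876, minus strand: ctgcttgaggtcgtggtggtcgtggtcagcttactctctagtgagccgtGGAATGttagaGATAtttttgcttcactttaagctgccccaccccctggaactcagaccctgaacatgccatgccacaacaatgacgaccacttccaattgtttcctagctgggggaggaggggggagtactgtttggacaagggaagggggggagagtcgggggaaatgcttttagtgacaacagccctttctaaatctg
In the Myh6 sequence GATA starts at base -234 and CATTCC at base -206 from the start, and in the Myh7 sequence GATA starts at -190 and CATTCC at -201. The 250 bases before the other Myh7 start held no match to either motif. They span chr14:54994550-54994799, so they overlap the Myh7 sequence shown but end short of its marked sites. GATA was present in 53.6% and CATTCC in 12.6% of 32851 upstream sequences of the same length. No match to TATAAA (12.4% of all) or to a CArG box (1.47%) lay in either sequence. Matches describe letters only.

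Sequencing depth was close to equal, with 13944617 heterozygote and 14122579 mutant reads. Ezh2 had 493 heterozygote and 319 mutant reads, or 36.4 and 21.9 CPM (read counts brought to a common library size with TMM scaling), a mutant-to-heterozygote ratio of 0.601 (0.521 to 0.694). This value counts reads of the whole gene and not of the floxed exons alone. The labels name the cells cardiomyocytes. All 7 cardiomyocyte markers were present, with summed levels of 18874 and 17118 CPM in heterozygote and mutant. Of the 7, 3 had a log2 ratio above 0 (48.8% of all genes). Actc1 (7745 and 6858 CPM) and Tnnt2 (6372 and 5786 CPM) made up most of both sums, so the lower sum does not stand for all 7. Markers of other types were present as well. Their summed levels were 3106 and 2250 CPM for erythroid, 1878 and 1761 CPM for smooth muscle, 1258 and 1248 CPM for mesenchymal, 752 and 710 CPM for endothelial, 298 and 292 CPM for pericyte (single genes beside Myh11), 155 and 163 CPM for epicardial, 40.1 and 32.7 CPM for leukocyte, 5.54 and 4.88 CPM for neuronal and 0 and 0.275 CPM for foregut genes. These sums do not measure the cells of a type. Acta2, which embryonic cardiomyocytes express as well, gave 1107 and 936 of the smooth muscle CPM. Abcc9 gave 160 and 137 of the pericyte CPM. Actg2, Lmod1 and Rgs5 of the same lists were each under 5 CPM in both libraries. In tissue of mixed cell types, fewer cells of a type and less RNA per cell cannot be told apart.

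Levels spanned a wide range within the family. Per kilobase of transcript, Myh7 stood at 1810 CPM (heterozygote) and 2085 CPM (mutant), and Myh6 at 384 and 538. The non-muscle genes Myh10 (71.7 and 75.9 CPM per kilobase) and Myh9 (31.9 and 33.2) followed, and then Myh7b (18.8 and 23.2). The skeletal isoform Myh8 (0.481 and 0.570), smooth muscle Myh11 (0.282 and 0.136) and embryonic skeletal Myh3 (0.123 and 0.0797) were close to the limit of detection. The order was the same in both libraries. Each gene was separated from the next by more than counting error, except Myh11 from Myh3 in the mutant, with a ratio of 1.71 (0.634 to 5.06). Per length, Myh7 made up 78.1% of the summed level of the 8 genes in the heterozygote, against 75.7% in the mutant, and Myh6 16.6% and 19.5%.

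**Figure D1:**
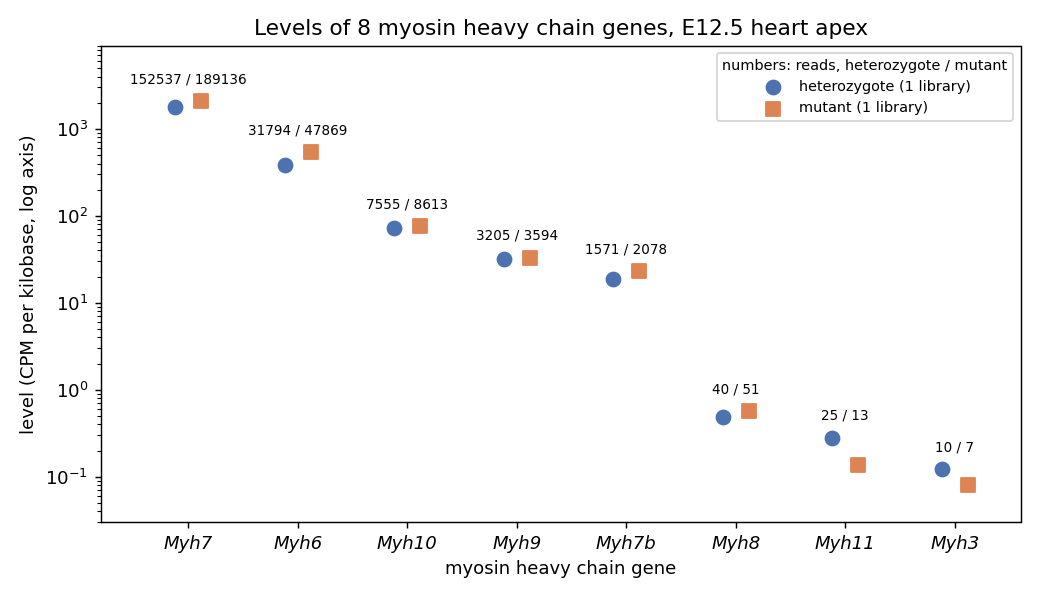
Level of each heavy chain gene in CPM per kilobase (log axis) in the heterozygote (circles) and the mutant (squares), 1 library each, with the reads of both printed above. Myh7 and Myh6 stand far above the other genes, and Myh8, Myh11 and Myh3 lie under 1 CPM per kilobase.

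The cardiac-type genes were all higher in the mutant library. Myh6, the alpha isoform, had 31794 heterozygote and 47869 mutant reads, which is 2350.4 and 3288 CPM, and ranked 34 and 23 among all genes by reads. The ratio of mutant to heterozygote was 1.40 (1.38 to 1.42). Myh7, the beta isoform, had 152537 and 189136 reads, or 11276 and 12992 CPM, a ratio of 1.15 (1.14 to 1.16). It took 1.09% of all heterozygote reads and 1.34% of all mutant reads, and its rank was 7 and 4. Myh7b had 1571 and 2078 reads, or 116 and 143 CPM, and a ratio of 1.23 (1.15 to 1.31). The counting interval of each of these 3 ratios was above 1, although the values depended on how GC content and transcript length were treated. When a trend of the log2 ratio on GC content and length was removed, the log2 ratio of Myh6 went from 0.48 to 0.28, that of Myh7 from 0.20 to 0.006 and that of Myh7b from 0.30 to 0.03. The transcripts of these genes are rich in GC, at 56.4%, 56.2% and 59.2%, and GC content and length were not separated.

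The balance of the main cardiac isoforms moved toward Myh6. When the reads of Myh6 and Myh7 were added, 17.2% (exact Clopper-Pearson 95% interval 17.1 to 17.4) of the heterozygote sum and 20.2% (20.04 to 20.4) of the mutant sum were from Myh6. Put as Myh7 reads per Myh6 read, the balance was 4.80 for the heterozygote against 3.95 for the mutant. The Myh6-to-Myh7 ratio was thus 1.21 times as high in the mutant (1.20 to 1.23). This quantity is taken within each library and needs no scaling, and the transcripts of the pair have nearly equal GC content and length. Because of that likeness, removal of the GC and length trend could hardly change the gap between their log2 ratios. The gap was 0.28 before and 0.28 after. Myh7b kept closer to Myh7: the Myh7b-to-Myh7 ratio was 1.07 times as high in the mutant (0.999 to 1.14), and the Myh7b-to-Myh6 ratio 0.879 times (0.822 to 0.939).

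Because Myh6 is prominent in the atria, atrial markers are given beside it. Of 5 markers, 4 reached 1 CPM and 2 of these had a log2 ratio above 0 (48.8% of all genes). The summed levels of the 5 were 4250 CPM in the heterozygote and 5091 in the mutant. The regulatory light chain gene Myl7 had 24006 and 43110 reads, a ratio of 1.67 (1.64 to 1.70). Myl4, the other light chain gene on the list, had 32702 and 30162, a ratio of 0.857 (0.844 to 0.871). Nearly all of both sums came from Myl7 (1775 and 2961 CPM) and Myl4 (2418 and 2072 CPM). The sums therefore stand for these 2 genes and do not measure an amount of atrial tissue. The atrial regulator Nr2f1 had 35 and 68 reads and a ratio of 1.81 (1.18 to 2.80), its relative Nr2f2 a ratio of 0.981 (0.886 to 1.09), and Sln, which encodes the atrial calcium pump inhibitor sarcolipin, only 8 and 5 reads. Nr2f1, Nr2f2 and Sln are named here to show the whole list. Ventricular markers had summed levels of 18405 and 16083 CPM, 2 of 4 with a log2 ratio above 0 (48.8% of all genes). Myl2 (15440 and 13244 CPM) and Myl3 (2820 and 2678 CPM) made up nearly all of these sums, and both were lower in the mutant under TMM scaling. As a share of all reads, Myl3 was not lower in the mutant (0.2736% in the heterozygote and 0.2761% in the mutant). Irx4, with a ratio of 1.27 (1.15 to 1.40), and Hey2, with 1.02 (0.945 to 1.10), complete the 4. The lower ventricular sum therefore does not stand for all 4 markers. The labels give the apex of the heart, the ventricular tip away from the atria, for both libraries. The part of atrial tissue in the Myh6 result was not tested.

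**Figure D2:**
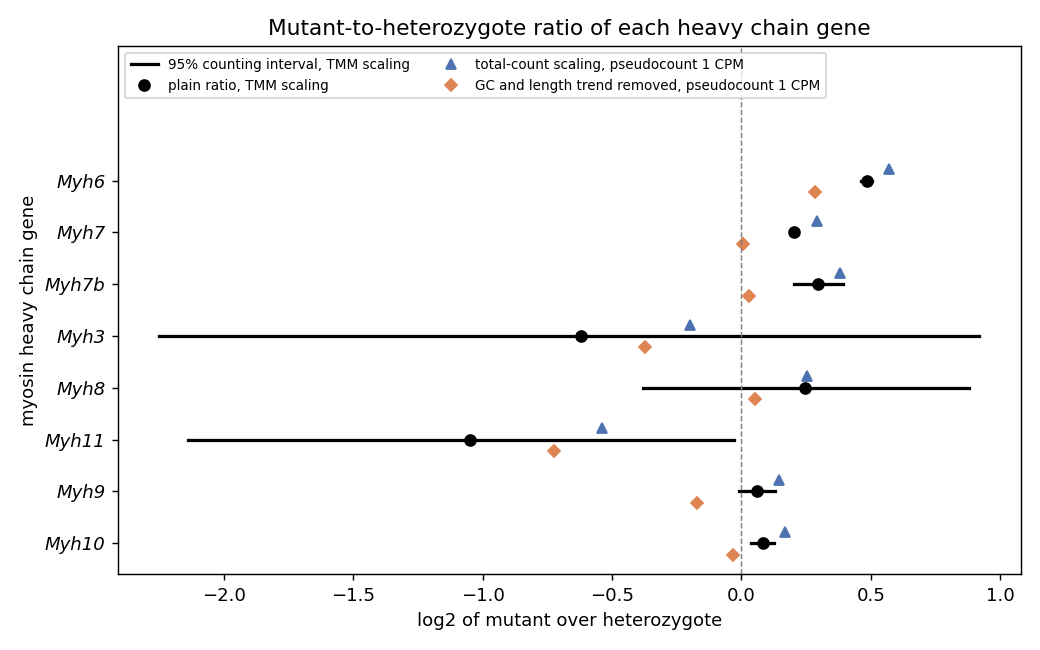
Log2 of mutant over heterozygote for each heavy chain gene: circles and bars are the plain ratio under TMM scaling with its 95% counting interval, triangles are total-count scaling and diamonds are values after removal of the GC and length trend (both with 1 CPM added). Myh6 stays right of 0 in all of them, whereas the diamonds of Myh7 and Myh7b lie near 0 and those of Myh9 and Myh10 left of it.

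Myh6 and Myh7 lie head to tail, 4116 bases apart, on the minus strand of chromosome 14 (55560763 to 55585408 and 55589525 to 55613386, as the files give them, in a build not given in the sources used here). A gene model on the opposite strand, named in the table by an mRNA accession, runs from 55587624 to 55593186. Of its 5563 bases, 3662 lie over the end of Myh7 and the rest in the gap between both genes. It had 22185 heterozygote and 28680 mutant reads, or 1640.0 and 1970.0 CPM, a ratio of 1.20 (1.18 to 1.22), above that of Myh7 (1.14 to 1.16). Its reads equal 14.5% and 15.2% of those of Myh7. Use of strand in the counting was not given in the sources used here, so reads of Myh7 and of transcripts from the other strand cannot be told apart. With all reads of this model taken off Myh7, the heterozygote Myh6 share was 19.6% (19.4 to 19.8) and the mutant share 22.98% (22.8 to 23.2), a ratio of ratios of 1.22 (1.20 to 1.24). This takes every read of the model as also counted for Myh7, which is not known, and part of the model lies outside Myh7. The values are therefore not corrected shares.

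**Figure D3:**
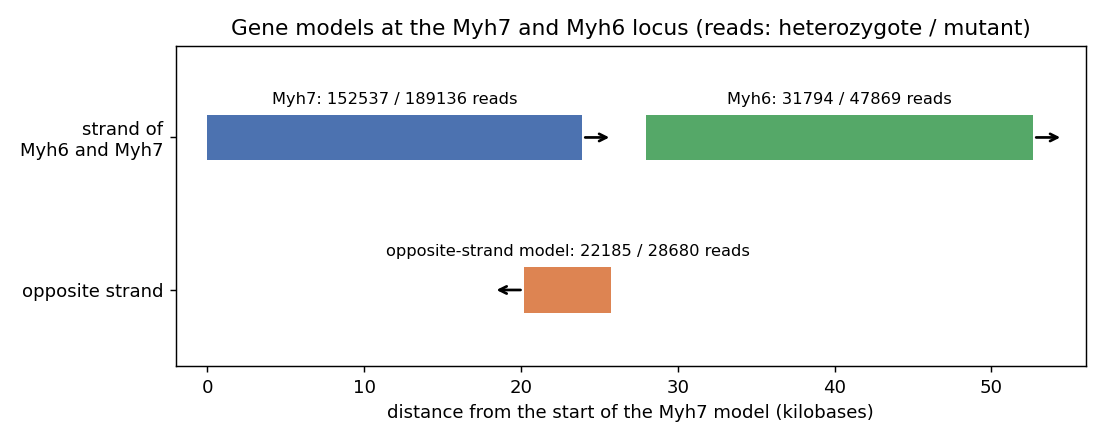
Gene models at the Myh7 and Myh6 locus by distance from the start of Myh7 in kilobases, with arrows for the direction of transcription and reads as heterozygote / mutant. The opposite-strand model (22185 / 28680 reads) covers the end of Myh7 and part of the gap before Myh6.

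The pair is also hard to separate by sequence. Over 5805 aligned bases, the coding sequences of Myh6 and Myh7 in GENCODE M21 were 91.6% identical, against 71.5% for Myh6 and Myh7b. Of all 50-base windows of the Myh6 coding sequence, 23.8% occurred unchanged in Myh7 transcripts, and of 36-base windows 30.8%. The longest unbroken identity was 245 bases in the tail region, shown because a read that falls inside it names neither gene.
Myh6 and Myh7, shared coding run: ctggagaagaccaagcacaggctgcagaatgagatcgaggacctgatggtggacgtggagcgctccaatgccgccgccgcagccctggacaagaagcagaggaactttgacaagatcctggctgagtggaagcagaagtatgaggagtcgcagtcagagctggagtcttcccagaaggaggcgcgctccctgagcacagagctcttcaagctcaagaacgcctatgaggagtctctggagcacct
It covers coding bases 4246 to 4490 of Myh6 (exons 30 to 31, chr14:54948327-54948725, minus strand, GRCm38) and 4240 to 4484 of Myh7 (exons 32 to 33, chr14:54974947-54975347). The placing of such reads by the authors' counting was not given in the sources used here, and their part in the Myh6 share was not tested. Windows shared with any other heavy chain gene were under 2% of all 50-base windows for Myh9, Myh10 and Myh11 (1.42%, 1.22% and 0.441%). For Myh7b there were 0 such windows, and its longest run identical to Myh6 or Myh7 was 33 bases.

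**Figure D4:**
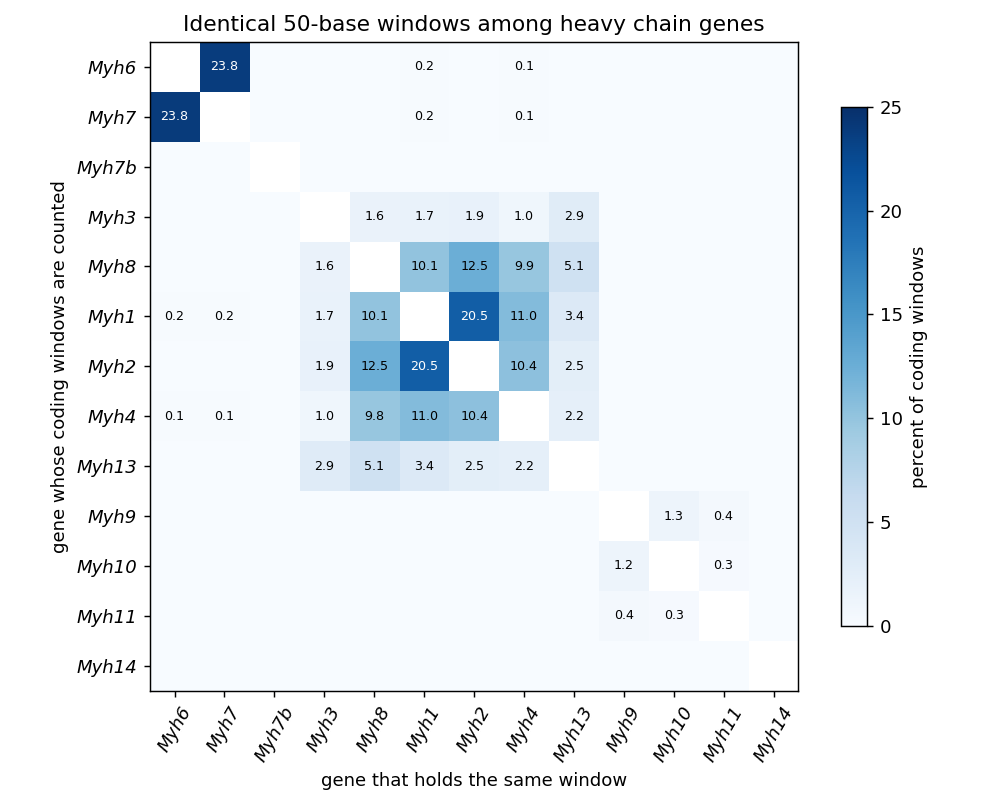
Percent of each gene's 50-base coding windows (rows) that occur unchanged in transcripts of another heavy chain gene (columns). The blocks that stand out are Myh6 with Myh7 at 23.8% and the skeletal cluster, where Myh1 and Myh2 share 20.5%.

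Skeletal isoforms were scarce. Myh8, the perinatal isoform, had 40 heterozygote and 51 mutant reads, 2.96 and 3.50 CPM, a ratio of 1.18 (0.768 to 1.84). Myh3, the embryonic isoform, had 10 and 7 reads, or 0.739 and 0.481 CPM, a ratio of 0.650 (0.210 to 1.89), and did not reach 1 CPM in either library. Both intervals include 1, so no difference was detectable at this depth. A shorter model inside Myh8 accounts for 17 reads in each library. Both genes lie in a cluster of 6 skeletal heavy chain genes on chromosome 11 (66891802 to 67185004), where 22.7% of the 50-base windows of Myh8 and 4.99% of those of Myh3 occur in another heavy chain gene, so the reads given to each are uncertain. Their coding sequences were 80.8% identical. The longest run that Myh7 shares with Myh8 was 47 bases and with Myh3 42 bases. Of 36-base windows, 0.363% of those of Myh8 and 0.173% of those of Myh3 occur in Myh7, which had far more reads. The part of Myh7 reads in these low counts was not tested.

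The other conventional heavy chain genes in the table were low too. Of 5 such genes in the table, 4 reached 1 CPM (Myh14 had 4 and 12 reads), and all 4 had a log2 ratio above 0, where 48.8% of all genes did. Myh4, a fast skeletal isoform in the cluster, had 77 heterozygote and 156 mutant reads, a ratio of 1.88 (1.42 to 2.51). Its neighbour Myh1 had 179 and 224 reads, a ratio of 1.16 (0.951 to 1.42). The ratio of Myh2 was 1.59 (1.02 to 2.50) and that of Myh13 1.29 (0.850 to 1.98), named because they complete the 4. The intervals of Myh1 and Myh13 include 1. Of the 50-base windows of Myh1, Myh2, Myh4 and Myh13, 27.9%, 28.1%, 19.5% and 8.81% occur in another heavy chain gene. The reads given to each of the 4 are thus uncertain, and their directions may depend on one another. Myh1 and Myh4 also shared 10 and 7 of their 50-base windows with Myh7, which had far more reads. Myh2 and Myh13 shared 0 with it. The part of Myh7 reads in these low counts was not tested. The regulators that define skeletal myoblasts were at or near 0: Myf5, Pax3 and Pax7 were without reads in both, Myod1 had 0 and 1, and Myog 3 and 4. A count of 0 still allows an expected count of up to 3 per library. Skeletal-type sarcomere genes, which the embryonic heart also expresses, went both ways, with Acta1 at a ratio of 1.77 (1.66 to 1.89), Tnnt3 at 1.87 (1.53 to 2.30) and Tnni2 at 0.598 (0.548 to 0.652). The summed level of the 8 skeletal markers in the table was 218 CPM in the heterozygote and 273 in the mutant.

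Myh11, the smooth muscle isoform, had 25 heterozygote and 13 mutant reads, 1.85 and 0.893 CPM. The heterozygote was 2.07 times as high (1.02 to 4.41), an interval that only just leaves out 1. The gene reached 1 CPM through the heterozygote alone, so it could be counted as lower but not as higher. Other smooth muscle markers did not share one direction. Of 9 markers tested, 5 had a log2 ratio above 0, among them, singled out after their values were seen, Tagln and the leiomodin gene Lmod1 with 13 and 35 reads, a ratio of 2.50 (1.29 to 5.15). Lmod1 reached 1 CPM through the mutant alone, so it could be counted only as higher. Acta2, the smooth muscle actin that embryonic cardiomyocytes express as well, had a ratio of 0.845 (0.826 to 0.865). Tagln, a smooth muscle gene also active in the embryonic heart, had 1298 and 2053 reads and a ratio of 1.47 (1.37 to 1.58). The summed level of the 9 markers was 1878 CPM against 1761 in the mutant. Of 6 pericyte markers, genes of the mural cells that wrap small vessels, 4 had a log2 ratio below 0 and 2 above 0. Of all genes, 48.8% were above 0. Rgs5 was lower in the mutant, with 48 and 7 reads (ratio 0.136, 0.0517 to 0.301), and so was Kcnj8, with 74 and 42 (0.527, 0.352 to 0.780). Rgs5 reached 1 CPM through the heterozygote alone (3.55 and 0.481 CPM), so it could be counted only as lower. Cspg4 was higher, with 984 and 1394 reads (1.32, 1.21 to 1.43). The ratios of the other pericyte markers lay between 0.860 (Abcc9) and 1.08 (Notch3). The part of smooth muscle cells and pericytes in the Myh11 value was not tested.

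Non-muscle heavy chains differed little. Myh10, the IIB isoform found in the cell cortex and in dividing cardiomyocytes, had 7555 heterozygote and 8613 mutant reads, 558.5 and 592 CPM, a ratio of 1.06 (1.03 to 1.09). Myh9, the IIA isoform, had 3205 and 3594 reads, 237 and 247 CPM, a ratio of 1.04 (0.993 to 1.09). Myh10 took 70.2% (69.3 to 71.1) of the pair's heterozygote reads and 70.6% (69.7 to 71.4) of its mutant reads, and the Myh10-to-Myh9 ratio was 1.02 times as high (0.961 to 1.08). That interval includes 1, but removal of the GC and length trend moved the gap between the log2 ratios of Myh10 and Myh9 from 0.02 to 0.14. The direction of either gene is not settled, since the log2 ratio of Myh10 was 0.08 before and -0.03 after the GC and length trend was removed, and that of Myh9 was 0.06 and -0.17. Myh10 was lower relative to the cardiac isoforms, whose transcripts have more GC than its own (51.5%). The Myh10-to-Myh6 ratio was 0.757 times that of the heterozygote (0.732 to 0.783), and the Myh10-to-Myh7 ratio 0.919 times (0.891 to 0.949). Removal of the GC and length trend moved the log2 gap of Myh10 to Myh6 from -0.40 to -0.32 and that to Myh7 from -0.12 to -0.04. A shorter model inside Myh10 had 3710 and 4047 reads, a ratio of 1.01 (0.969 to 1.06). The coding sequences of Myh9 and Myh10 were 74.0% identical, with a longest shared run of 122 bases, and those of Myh9 and Myh11 74.9%.

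Counted as a family, 7 of the 8 genes reached 1 CPM. On the scale log2((mutant CPM + 1)/(heterozygote CPM + 1)), where differences of low genes look smaller, 6 of the 7 were above 0 and 1 was below, while 48.8% of all 16185 genes at this level were above 0. Under removal of the GC and length trend 4 of the 7 were above 0. None of the 7 was at least 2-fold higher, as 0.605% of all genes were, and 0 were at least 2-fold lower, as 0.173% were. With a milder bound on the same scale, Myh6 was the 1 gene at least 25% higher (12.4% of all genes) and Myh11 the 1 at least 20% lower (10.7%). The Myh6 call ended after removal of the GC and length trend (log2 ratio 0.28, against a bound of 0.32), and the Myh11 call with 5 CPM added (-0.22). Under total-count scaling Myh7b passed the upper bound as well (0.38). The median log2 ratio was 0.19, against -0.008 over all genes, but 0.006 after removal of the GC and length trend. All 8 genes together had 14544 heterozygote and 17266 mutant CPM, a ratio of 1.19 (1.18 to 1.19), and took 1.41% and 1.78% of all reads, nearly all of it from Myh7 and Myh6.

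Genes of proteins that work with the heavy chains had medians near 0. Light chains, which bind the neck of each heavy chain, had a median log2 ratio of -0.08 (0.005 under total-count scaling). Of 11 light chain genes at or above 1 CPM, 4 were above 0 (48.8% of all genes). Myl7 and, just past the bound, Myl6b were at least 25% higher (12.4% of all genes) and 0 were at least 20% lower (10.7%). Myl2, the ventricular regulatory light chain, had 208859 heterozygote and 192809 mutant reads, a ratio of 0.858 (0.852 to 0.863), and Myl3, the ventricular essential light chain, 38147 and 38986, a log2 ratio of -0.08. Under TMM scaling Myh7 was thus above 1 and Myl2, its partner in the ventricle, below 1 in the same libraries. After removal of the GC and length trend, however, the log2 ratio of Myh7 was 0.006. The 2 transcripts differ in GC content (56.2% for Myh7, 50.3% for Myl2) and in length (6230 and 889 bases), so their contrast may depend on that treatment. Summed over the lists under TMM scaling, with no trend removed, light chains stood at 25279 and 23761 CPM and the 8 heavy chains at 14544 and 17266.

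Thick filament and M-band genes had a median of 0.04 (-0.11 after removal of the GC and length trend), with 6 of 10 above 0 (48.8% of all genes). Those at least 25% higher (12.4% of all genes) were Mybpc1, a myosin binding protein gene listed under an older name, and Obsl1. Those at least 20% lower (10.7% of all genes) were Myom2 and Mybphl, a relative of the myosin binding proteins (ratio 0.645, 0.526 to 0.790). The M-band gene Myom2 was the 1 gene at least 2-fold apart, with 284 heterozygote and 71 mutant reads (ratio 0.232, 0.177 to 0.302). Of all genes, 0.173% were at least 2-fold lower. Within light chains, thick filament and M-band genes, those closest to Myh6 in log2 ratio over these libraries (0.48) were Mybpc1 (0.53), Obsl1 (0.37) and Myl6b (0.32). Closest to Myh7 (0.20) were the giant sarcomere protein gene Ttn (0.22), Mylpf (0.26) and Myl9 (0.12). Ttn had 49192 and 61531 reads, a ratio of 1.16 (1.15 to 1.18). Likeness here rests on a single ratio per gene, and several of these genes had few reads. Mybpc1 had 59 and 98 reads (ratio interval 1.11 to 2.17), Myl6b 50 and 71 (0.906 to 1.93) and Mylpf 139 and 182 (0.970 to 1.53). The intervals of Myl6b and Mylpf include 1, so their place in this order is loose.

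Genes for folding, assembly and turnover of myosin had a median of -0.09. Of 8 genes, 2 were above 0 (48.8% of all genes) and 1 gene was at least 20% lower (10.7% of all genes). That gene was the chaperone gene Hsp90aa1, with 4956 and 4048 reads and a ratio of 0.759 (0.728 to 0.791), while its relative Hsp90ab1 stood at 1.01 (0.989 to 1.03). Kinases and phosphatase subunits that act on light chains had a median of -0.09 (0.05 after removal of the GC and length trend and 0.001 under total-count scaling). Of 9 genes, 4 were above 0 (48.8% of all genes). The 1 gene at least 25% higher (12.4% of all genes) was Ppp1r12c, a targeting subunit of the phosphatase (ratio 1.30, 1.14 to 1.48). The phosphatase catalytic gene Ppp1cb had a ratio of 0.915 (0.877 to 0.956) and the cardiac kinase gene Mylk3, listed under an older name, 0.850 (0.801 to 0.902). Unconventional and class XVIII myosins, motors for transport and membrane tension, had a median of 0.03 (-0.05 after removal of the GC and length trend, -0.01 with a floor of 5 CPM). Of 20 such genes, 11 were above 0 (48.8% of all genes). The 2 at least 25% higher (12.4% of all genes) were Myo5b (15 and 29 reads) and Myo7a (ratio 1.28, 1.10 to 1.49). The most abundant members were Myo18a at 1.06 (1.02 to 1.11) and Myo1c at 0.902 (0.842 to 0.966).

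Regulators known from studies of cardiac heavy chain genes had a median of 0.17 (0.08 after removal of the GC and length trend), with 13 of 17 above 0, where 48.8% of all genes were. The zinc finger factor gene Gata4 had 2703 and 3268 reads, a ratio of 1.12 (1.07 to 1.18), and the homeodomain-only gene Hopx 3670 and 3244, a ratio of 0.821 (0.783 to 0.861). The 2 genes at least 25% higher were Tbx5, a T-box factor of atria and the left ventricle, at 1.32 (1.20 to 1.46), and Pura, at 1.45 (1.09 to 1.95), and 0 were at least 20% lower, beside 12.4% and 10.7% of all genes, so the count of higher genes was near the background. Thra, the main thyroid hormone receptor of the heart and a regulator of the Myh6 to Myh7 balance, was singled out for that role and had a ratio of 1.18 (1.08 to 1.28).

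**Figure D5:**
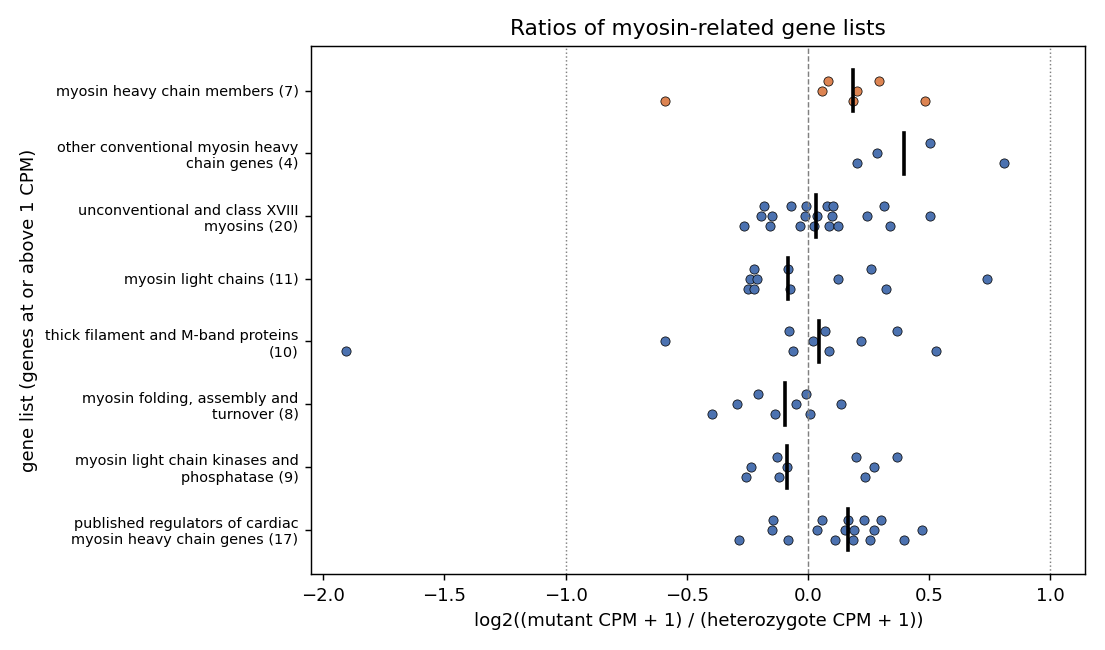
Log2 ratio, with 1 CPM added to each level, of every gene at or above 1 CPM in 8 myosin-related lists (marker lists are not drawn); bars mark medians, the dashed line 0 and the dotted lines a 2-fold difference. Among these genes Myom2 is the 1 past a dotted line, and the heavy chain genes run from -0.59 (Myh11) to 0.48 (Myh6).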

How the data were processed

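Total RNA was sequenced from 1 library per genotype after preparation for full-length transcripts, as the labels' protocols state. The deposited table of the whole series gives whole-number read counts per gene model, per the file headers. It also gives CPM (reads over the table's total), a ratio of heterozygote over mutant CPM and a p-value whose test is not named, per the file headers, and these were not used for results. The tables of single samples hold the same read counts. Aligner, counter, strand and build were not given in the sources used here.

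Trailing chromosome tags were stripped from symbols and rows of 1 symbol were summed. Counts were scaled with TMM in edgeR 4.0.16 under R 4.3.3. Ratios carry an exact conditional Poisson 95% interval, shares a Clopper-Pearson interval, and the ratio of 2 ratios a Woolf interval. Such intervals hold counting error and nothing else, and without molecular identifiers 1 molecule can give several reads. Log2 ratios had 1 CPM added, and counts of genes took those that reached 1 CPM in either genotype. Lengths, GC content, windows and coding sequences (longest open reading frame) came from GENCODE M21, aligned with MAFFT 7.526. The GC and length trend was quadratic in log length and GC content (10861 genes), and 95.8% of tested genes not named by an accession had a value. Of 176 list entries, 168 matched. The calculation was tested on simulated data.

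The members and lists were chosen with earlier results of these data known. Named genes are all 8 members, of each myosin-related list the members at least 2-fold apart (up to 4) or else the 2 with the highest mean, and the 3 nearest in log2 ratio to Myh6 and to Myh7. Other genes were named after their values were seen, where a count was small or a marker bears on a member. Alternatives covered pseudocount, floor, scaling (total count, upper quartile, DESeq2 1.42.0 size factors) and GC content.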

Additional observations from a re-analysis of the deposited data

How the results depend on the processing

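No library could be left out and no paired analysis was possible because there is 1 library per genotype. Myh6, Myh7, Myh7b and Myh8 had log2 ratios above 0 under every pseudocount, scaling and GC setting (0.28 to 0.57, 0.006 to 0.29, 0.03 to 0.38 and 0.05 to 0.25), and Myh3 and Myh11 below 0 (-0.53 to -0.07 and -0.97 to -0.22). Those of Myh9 (-0.17 to 0.15) and Myh10 (-0.03 to 0.17) were below 0 after removal of the GC and length trend alone, and of 48 such values 11 moved by more than the counting error. Total-count scaling shifted log2 ratios upward by up to 0.09. The median over the heavy chain genes ranged from 0.006 to 0.25. List medians that changed sign under a setting were those of light chains (-0.15 to 0.005), thick filament genes (-0.11 to 0.11), kinases and phosphatase (-0.10 to 0.05) and unconventional myosins (-0.05 to 0.09).

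The number of genes at least 2-fold apart, 98 higher and 28 lower in the mutant, became 312 and 143 with a pseudocount of 0.1 CPM, 14 and 6 with 5 CPM, and 50 and 14 with a floor of 5 CPM. Per kilobase the Myh6 share was 17.5% and 20.5%, and the Myh10 share 69.2% and 69.6%, in heterozygote and mutant. An alternative chosen after seeing the data, with all reads of the opposite-strand model taken off Myh7, gave a Myh6 share of 19.6% and 22.98%. Depth limits what can be seen for Myh3, Myh8 and Myh11, with 7 to 51 reads.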
